A study of Mus musculus with 12 samples.

Results

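The TGF-beta pathway was followed through 10 genes: the ligands Tgfb1, Tgfb2 and Tgfb3, the receptors Tgfbr1, Tgfbr2 and Tgfbr3, and the signal carriers and brakes Smad2, Smad3, Smad4 and Smad7. They were chosen by gene symbol, with earlier results of these data known. All 10 were found among the 30399 genes of the table and were abundant enough to be tested. The samples were 5 labelled normal lung and 7 labelled tumor in a study that used CRISPR/Cas9, a nuclease that cuts chosen genes so that faulty repair disables them, delivered without a virus to give mice lung cancer. Poly-A selected RNA was sequenced as paired ends. Beyond the tissue, the labels give no strain, age, sex, genotype, targeted gene, treatment or time for either group, and do not say whether the normal lungs came from untreated mice. Tumors 3 and 4 share the number 159 in their titles and tumors 5, 6 and 7 the number 201, which may stand for an animal. Tumors 1 and 7 carry the Spanish word for trachea, and tumors 3 to 6 the word for lung. Normal lung titles begin with CTL, which the labels do not explain, and each holds a number that no other sample has. Nothing in the labels says that samples of one group are separate animals, so the p-values measure the spread between these samples only.

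TGF-beta is a secreted protein kept inactive by its own propeptide and by binding proteins of the matrix until integrins or proteases free it. The active dimer joins the type II receptor Tgfbr2 to the type I receptor Tgfbr1, and Tgfbr1 then phosphorylates Smad2 and Smad3, which enter the nucleus with Smad4 and switch genes on or off. Smad7 is induced by the signal and shuts it down at the receptor. In the lung the pathway is known for holding back epithelial growth and for driving matrix production by fibroblasts.

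Values are normalized counts, that is, read counts of a gene divided by 1 size factor per sample, and are comparable between samples but not between genes. Normal lungs had 11126432 to 17032234 counted reads and tumors 13093843 to 24217633. Lung markers followed the labels. The summed count of 12 lung epithelial markers was 343997 to 564474 in normal lung and 1496 to 5086 in tumors, and that of 12 neuroendocrine markers was 348 to 515 and 44330.2 to 157814. Tumor 7 stood apart from the other tumors with the highest sums of leukocyte markers (16682, against 431 to 4827) and cardiac muscle markers (39880, against 754 to 3044). Its sums of neuroendocrine (44330.2) and proliferation markers (22513) were the lowest among the tumors. Y-linked genes were expressed in 4 of 5 normal lungs and 1 of 7 tumors. Y-linked level and tissue thus nearly coincided, and a fit with that level as a covariate separates them poorly.

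In tumors 5 of the 10 genes were lower and 1 was higher than in normal lung, by limma at an adjusted p under 0.05. The receptors Tgfbr2 and Tgfbr3, the signal carrier Smad3, its inhibitor Smad7 and the ligand Tgfb1 fell, by between 4.42-fold and 12.2-fold, while Smad2 rose 1.42-fold. Tgfb2, Tgfb3, Tgfbr1 and Smad4 did not pass the test. Of all 23674 genes tested, 61.5% passed it, 31.4% as higher and 30.1% as lower in tumor, so the 6 of 10 that passed is a share close to that of all genes. In 4 of the 10 genes every tumor lay below every normal lung and in 0 every tumor lay above. Over all tested genes the groups did not overlap in 38.4%, with tumors above in 20.1% and below in 18.4%. The median log2 fold change of the 10 genes was -1.41, against 0.04 over all tested genes. These are bulk tissues, in which fewer cells of a type and less RNA per cell cannot be told apart.

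**Figure D1:**
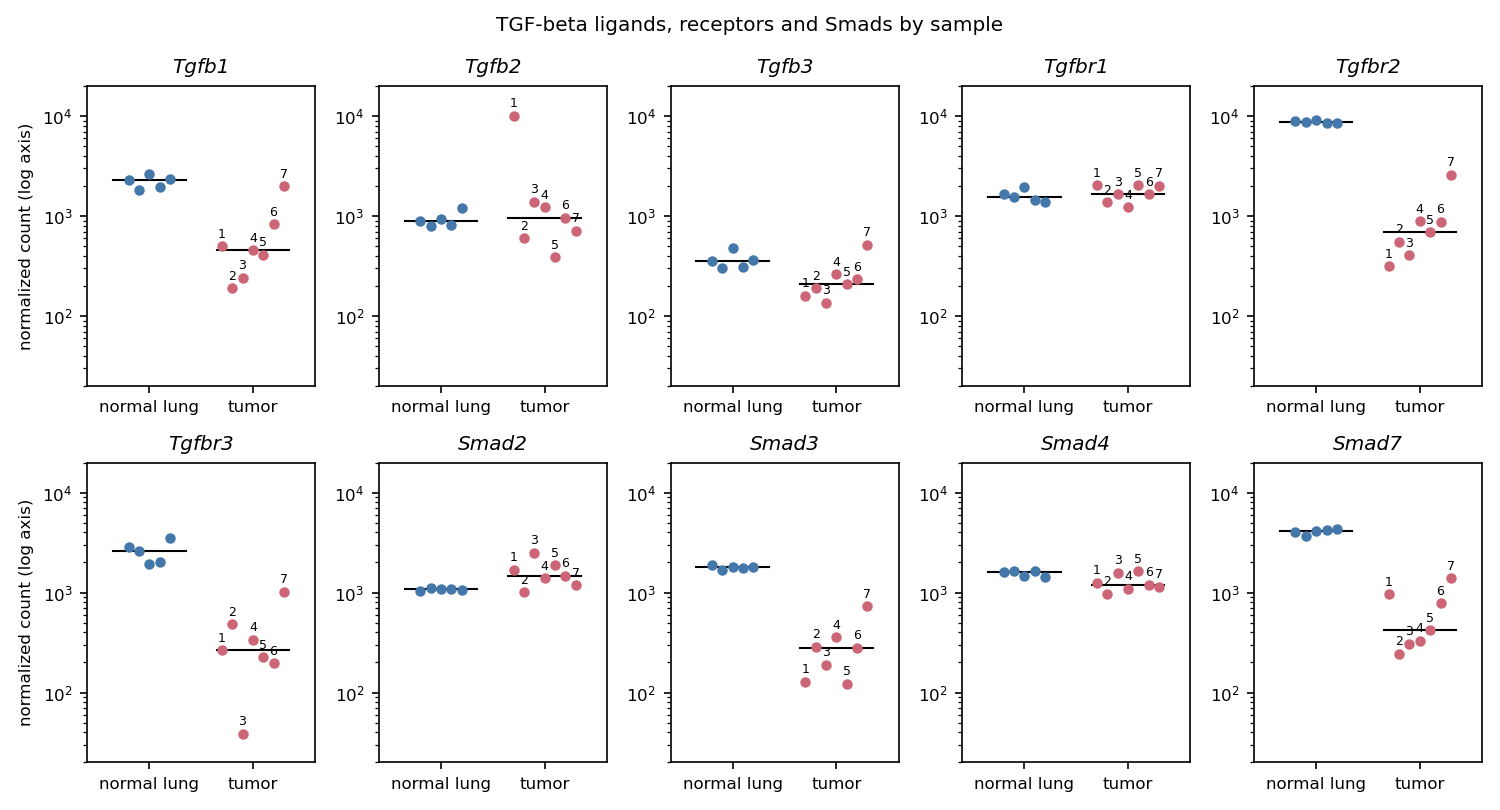
Normalized counts (log axis) of the 10 genes in 5 normal lungs and 7 tumors, 1 point per sample, with tumors numbered and a bar at each group's median. Tgfbr2, Tgfbr3, Smad3 and Smad7 show no overlap between the groups, tumor 1 stands far above all others for Tgfb2, and tumor 7 is the highest tumor for 6 of the genes.

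The plot of counts by sample shows that normal lungs lay close together for most of the genes and tumors did not. For Tgfbr2 the highest normal lung was 1.05 times the lowest, and the highest tumor was 8.20 times the lowest. The plot of fold changes with their intervals gives the size of each change.

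**Figure D2:**
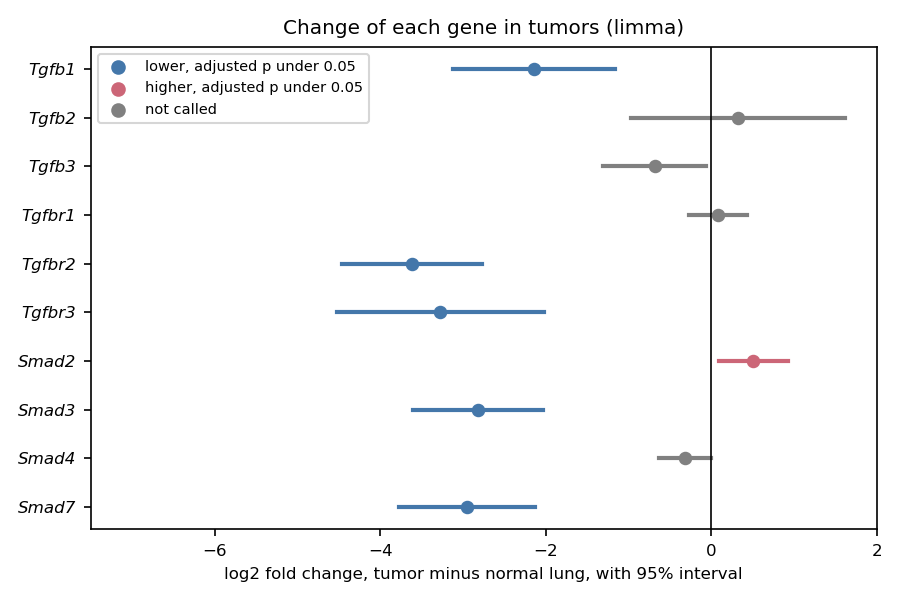
Log2 fold change of each gene in tumors against normal lung from limma (point) with its 95% interval (line), coloured by whether the adjusted p was under 0.05. The intervals of Tgfbr2, Tgfbr3, Smad3, Smad7 and Tgfb1 lie below -1, and those of Tgfb2 and Tgfbr1 include 0.

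Among the ligands, Tgfb1, the form made by most leukocytes, platelets and endothelium, was the only one called lower. Tgfb1 (ENSMUSG00000002603) had 2290.4, 1828, 2634, 1944 and 2342 normalized counts across normal lungs 1 to 5. In the 7 tumors it ran from 191 in tumor 2 through a median of 454 to 1996 in tumor 7. Tumor 7 lay inside the normal range and the other 6 tumors lay below it. It changed on the log2 scale by -2.15 (limma SE 0.46, adjusted p = 0.00112), and without tumor 7 it was -2.48. It was smaller on recovered reads of 11 samples, at -1.49 in edgeR and -1.58 in DESeq2, with the call kept in both. These count tests left out tumor 3, without which limma gave -1.97.

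Tgfb2 behaved in another way, with 1 tumor far above everything else. Tgfb2 (ENSMUSG00000039239), a form prominent in epithelium and nervous tissue during development, had 899, 799, 932, 817 and 1213 normalized counts across normal lungs 1 to 5. Tumors 1 to 7 had 10064, 602, 1390.0, 1225, 388, 965 and 714. Tumor 1 was 10.9-fold above the normal lung mean on the log scale, whereas 3 of the other tumors were below the normal range, 2 above it and 1 inside it. Against normal lung it changed by a log2 value of 0.33 (SE 0.60, 95% interval -0.97 to 1.62, limma adjusted p = 0.655), and leaving out tumor 1 turned it to -0.19. It was 1.43 in edgeR on recovered reads of the 11 samples other than tumor 3 (adjusted p = 0.138). Once Y-linked expression entered as a covariate it was 1.55 (limma adjusted p = 0.0567). Tumor 7, whose title also holds the word for trachea, had 714, below every normal lung. Exons of Tgfb2 overlap those of Gm29491 on the opposite strand, and use of the strand in counting is not given in the sources used here. Gm29491 itself had 4.48 to 28.5 normalized counts over the 12 samples, with the highest value in tumor 1.

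Tgfb3 (ENSMUSG00000021253), the least abundant of the ligands per length in normal lung and known from palate and lung development, had 357, 303, 485, 312 and 364 normalized counts in normal lungs. Tumors ran from 136 in tumor 3 through a median of 209.5 to 518 in tumor 7. All tumors other than tumor 7 lay below the normal lungs, and tumor 7 lay above them. The log2 fold change of -0.68 (limma SE 0.29, adjusted p = 0.0531) just missed the threshold, and without tumor 7 it was -0.89 and passed (adjusted p = 0.00233). On recovered reads, without tumor 3, it was smaller, at -0.37 in edgeR (adjusted p = 0.304) and -0.45 in DESeq2 (adjusted p = 0.212). Limma without tumor 3 gave -0.56. With columns scaled to equal totals it was -0.48 (limma adjusted p = 0.173). Tgfb3 has exons that overlap Gm48008, which had no more than 4.49 normalized counts in any sample.

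The promoter sequences of Tgfb1 and Tgfb2 are shown because these ligands diverged in tumor 1. Each run is the 250 bases before the gene's first listed start in RefSeq on build GRCm38.p6, read on the gene's own strand. Capitals mark GGGCGG (the GC box, bound by Sp1), CAGACA (a core Smad-binding sequence), TATAAA (the TATA box) and CACGTG (an E-box), each searched on both strands, so that CCGCCC is the reverse of GGGCGG.
Tgfb1, chr7:25686752-25687001, plus strand: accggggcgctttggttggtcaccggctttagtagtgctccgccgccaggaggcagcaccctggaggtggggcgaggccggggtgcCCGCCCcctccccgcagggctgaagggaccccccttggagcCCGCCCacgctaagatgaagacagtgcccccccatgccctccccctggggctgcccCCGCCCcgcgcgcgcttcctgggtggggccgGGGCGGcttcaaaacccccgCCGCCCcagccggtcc
Tgfb2, chr1:186705990-186706239, minus strand: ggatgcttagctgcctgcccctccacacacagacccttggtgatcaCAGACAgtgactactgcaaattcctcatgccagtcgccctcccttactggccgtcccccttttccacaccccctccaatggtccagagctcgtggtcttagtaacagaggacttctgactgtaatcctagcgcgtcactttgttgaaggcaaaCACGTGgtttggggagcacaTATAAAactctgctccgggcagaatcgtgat
The Tgfb1 run is 75.2% GC and holds 5 GC boxes and none of the other motifs. The Tgfb2 run is 53.6% GC, holds no GC box, and has a TATA box at position -31, an E-box at -51 and 1 CAGACA at -204, counted back from the start. Among 32851 promoter windows of this length, 32.7% hold a GC box, 12.4% a TATA box, 6.02% an E-box and 17.1% CAGACA. These matches describe the letters only.

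The makeup of the ligands differed from tumor to tumor. Counts were divided by exon length in kilobases to compare genes, and no test was made on these shares. In normal lung Tgfb1 made up 59.4% to 63.5% of the summed ligand count per kilobase, Tgfb2 19.5% to 26.8% and Tgfb3 13.8% to 17.3%. In tumors the Tgfb1 share ran from 5.26% in tumor 1 to 58.9% in tumor 7, and the Tgfb2 share from 18.3% in tumor 7 to 92.2% in tumor 1. Tgfb2 was the largest ligand share in tumors 1, 2, 3, 4 and, narrowly, 6 (41.5% against 41.2% for Tgfb1), and in no normal lung.

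**Figure D3:**
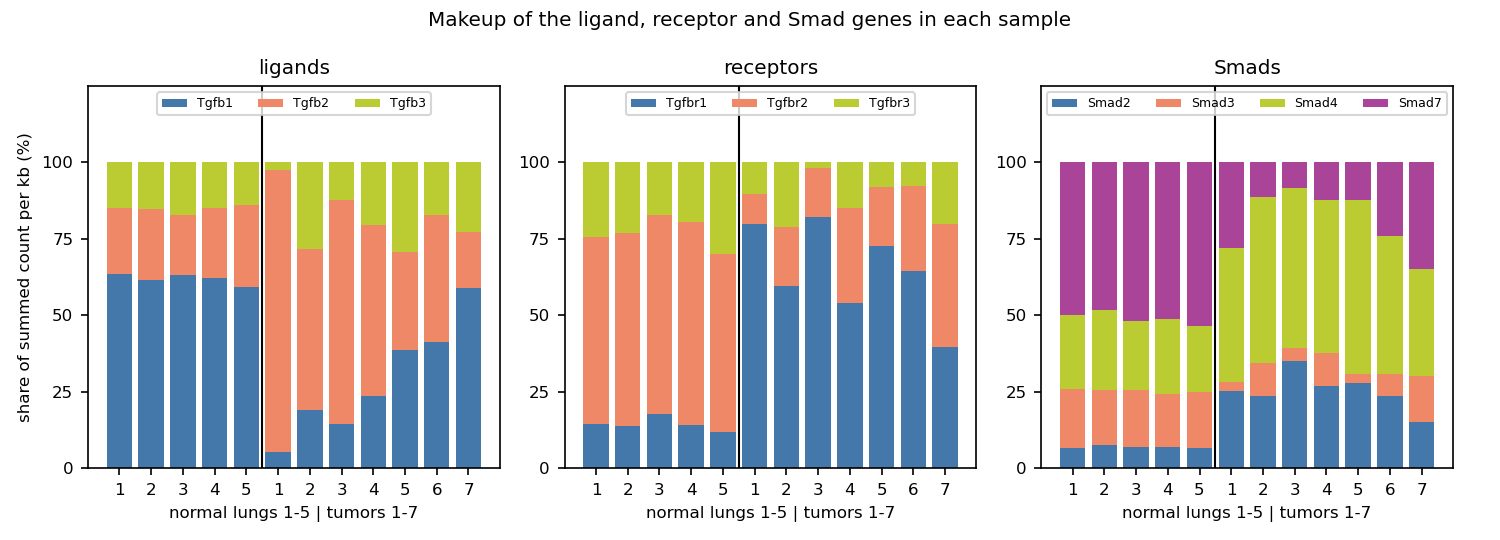
Share (%) of each gene in the summed count per kilobase of exon of its family, for 5 normal lungs and 7 tumors, with a line between the groups. Tgfb1, Tgfbr2 and Smad7 hold the largest shares in every normal lung, and Tgfbr1 holds 39.6% to 82.0% of the receptor total in tumors.

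The receptors split, with the type II receptor and the co-receptor lower and the type I receptor not called. Tgfbr2 (ENSMUSG00000032440), which binds the ligand and starts the signal, had 8960.5, 8809.8, 9064, 8602 and 8616 normalized counts across normal lungs 1 to 5. Tumors 1 to 7 had 316, 553, 406, 885, 685, 881 and 2591. All tumors lay below all normal lungs, and even the highest, tumor 7, was 3.40-fold under their mean. Its log2 difference, tumor minus normal, was -3.61 (limma SE 0.39, adjusted p = 3.99e-06), the largest fall among the 10 genes, and it ran from -4.09 to -3.06 over all 23 alternative fits.

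Tgfbr3 (ENSMUSG00000029287), the co-receptor betaglycan that presents ligand, Tgfb2 above all, to Tgfbr2, had 2832, 2587, 1927, 2031 and 3511 normalized counts in normal lungs. Tumors ran from 38.7 in tumor 3 through a median of 266 to 1022 in tumor 7, again with no overlap. Tumors 3 and 4, which share a title number, had 38.7 and 337. In tumors its log2 fold change was -3.28 (limma SE 0.58, adjusted p = 0.000279).

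Tgfbr1 (ENSMUSG00000007613), the kinase that phosphorylates Smad2 and Smad3, had 1673, 1541, 1961, 1461 and 1388 normalized counts in normal lungs and 1230.3 (tumor 4) to 2052 (tumor 1) in tumors, with a median of 1655. The groups overlapped widely. It changed on the log2 scale by 0.08 (SE 0.16, 95% interval -0.26 to 0.43, limma adjusted p = 0.673), and over the alternative fits it ran from -0.026 without the trachea-titled tumors to 0.29 with columns scaled to equal totals. Set side by side per kilobase, the Tgfbr1 to Tgfbr2 ratio was 0.202 to 0.271 in normal lung and 0.977 (tumor 7) to 8.14 (tumor 1) in tumors.

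The promoters of these 2 receptors are shown because one gene fell in every tumor and the other did not pass the test. Window, build and capitals are as for the ligands.
Tgfbr1, chr4:47352972-47353221, plus strand: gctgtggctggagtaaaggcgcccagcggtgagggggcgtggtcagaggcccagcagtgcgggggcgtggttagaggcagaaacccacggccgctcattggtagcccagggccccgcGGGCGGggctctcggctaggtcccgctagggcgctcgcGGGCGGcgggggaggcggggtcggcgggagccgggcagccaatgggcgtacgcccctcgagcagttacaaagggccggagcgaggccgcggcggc
Tgfbr2, chr9:116175364-116175613, minus strand: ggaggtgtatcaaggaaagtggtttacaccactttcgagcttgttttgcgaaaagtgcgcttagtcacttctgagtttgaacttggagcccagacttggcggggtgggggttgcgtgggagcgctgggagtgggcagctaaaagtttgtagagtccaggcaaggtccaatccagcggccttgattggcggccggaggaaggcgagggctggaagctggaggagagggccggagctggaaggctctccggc
The Tgfbr1 run is 74.8% GC with 2 GC boxes, and the Tgfbr2 run is 58.4% GC with none of the motifs searched. Tgfbr1 has another listed start, not shown, whose window is 52.8% GC with no GC box and 1 CAGACA at -203. Smad3, which fell with Tgfbr2, has 2 GC boxes in its own 250 bases, at 69.2% GC. The palindrome GTCTAGAC, a full Smad-binding site found in 0.167% of all windows, was in none of the windows read for the 5 genes with an entry used here. Promoters of Tgfb3, Tgfbr3, Smad2, Smad4 and Smad7 were not read, so nothing is said of the palindrome in them.

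Of the receptor-activated Smads, Smad3 fell and Smad2 rose. Smad3 (ENSMUSG00000032402), which binds DNA directly, had 1883, 1686, 1804, 1749 and 1803 normalized counts across normal lungs 1 to 5. Tumors 1 to 7 had 129, 288, 189, 358, 123, 280.3 and 737, all below the normal lungs. Against normal lung it changed by a log2 value of -2.82 (limma SE 0.37, adjusted p = 2.01e-05).

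Smad2 (ENSMUSG00000024563), whose main form does not bind DNA itself, had 1042, 1116, 1085, 1095 and 1051 normalized counts in normal lungs. Tumors ran from 1008 in tumor 2 through a median of 1478 to 2506 in tumor 3, and 6 of 7 were above all normal lungs. The log2 fold change of 0.51 (limma SE 0.19, adjusted p = 0.0357) was close to the threshold. Leaving out any one of the 5 normal lungs, or tumor 1, 3 or 5, ended the call, with adjusted p of 0.0556 to 0.0675, and so did treating tumors of one title number as correlated (0.0701) or taking the Y-linked level as a covariate (0.0928). The change kept its sign in all of these fits. The Smad2 to Smad3 ratio per kilobase was 0.349 to 0.418 in normal lung and 1.02 (tumor 7) to 9.67 (tumor 5) in tumors.

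Smad4 (ENSMUSG00000024515), the common partner of the activated Smads, had 1603, 1651, 1478, 1652 and 1419 normalized counts in normal lungs and 972 (tumor 2) to 1628 (tumor 5) in tumors, with a median of 1195. In 5 tumors it was below all normal lungs, and tumors 3 and 5 lay inside their range. Its log2 difference, tumor minus normal, was -0.32 (SE 0.15, 95% interval -0.63 to -0.00467, limma adjusted p = 0.0727), and in 4 of 23 alternative fits it passed, among them those without tumor 3 (-0.38) or tumor 5 (-0.38). With columns scaled to equal totals it was -0.11 (limma adjusted p = 0.493).

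Smad7 (ENSMUSG00000025880), the inhibitory Smad that the pathway itself induces, had 4003, 3693, 4107, 4218 and 4321 normalized counts across normal lungs 1 to 5. Tumors 1 to 7 had 965, 244, 307, 329.6, 423, 778 and 1392. No tumor reached the lowest normal lung. In tumors its log2 fold change was -2.95 (limma SE 0.38, adjusted p = 1.95e-05). Per kilobase, Smad7 held 48.2% to 53.6% of the summed Smad count in normal lung and 8.35% (tumor 3) to 34.8% (tumor 7) in tumors, where Smad4 held 34.9% to 57.0%.

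Levels could be ordered between genes only per kilobase of exon. In normal lung the order by mean was Tgfbr2 (1076 ± 25.01, SD, n = 5), Smad7 (899.9 ± 53.4), Tgfb1 (438 ± 64.3), Smad4 (420.4 ± 28.7), Tgfbr3 (394 ± 98.4), Smad3 (322 ± 13.2), Tgfbr1 (246 ± 34.5), Tgfb2 (161 ± 28.8), Smad2 (123 ± 3.52) and Tgfb3 (108 ± 21.4). Tgfb1, Smad4 and Tgfbr3 overlapped in range, as did Tgfbr3 with Smad3 and Smad2 with Tgfb3, while Tgfbr2 and Smad7 lay apart from each other and from the rest, and Smad3, Tgfbr1, Tgfb2 and Smad2 did not overlap one with the next. In tumors the order by median was led by Smad4 (322) and Tgfbr1 (253), followed by Smad2 (168) and Tgfb2 (167), and ended with Smad3 (50.6) and Tgfbr3 (40.6). Ranges of neighbouring genes in that order overlapped in every case. The gene at the head of the order in normal lung, Tgfbr2, thus stood seventh in tumors, at a median of 83.7.

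Tumors differed among themselves most in Tgfb2 and Tgfbr3, with SDs of log2 values of 1.51 and 1.44, and least in Smad4 and Tgfbr1, with 0.27 and 0.30. The median SD among tumors over the 16518 genes with a mean log2 value of at least 4 was 0.50. The corresponding SDs among normal lungs ran from 0.03 for Tgfbr2 to 0.36 for Tgfbr3. Tumor 7 had the highest tumor value for Tgfb1, Tgfb3, Tgfbr2, Tgfbr3, Smad3 and Smad7, 5 of which are the genes called lower. Tumor 2 had the lowest value for Tgfb1, Smad2, Smad4 and Smad7.

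Most markers of stromal, vascular and immune cells were also lower in tumor. All 10 endothelial markers were lower in tumor, with a summed count of 69618 to 80560 in normal lung and 2733 to 7550 in tumors. Of 9 fibroblast markers 6 were lower (54948 to 102790 against 1596 to 5666), of 10 smooth muscle and pericyte markers 9 (8046 to 14849 against 1269 to 9393), of 12 leukocyte markers 11 (86499 to 166480 against 431 to 16682) and of 4 mesothelial markers 3 (796 to 2379 against 6.94 to 1010.0). Of 5 platelet markers 4 were lower and 1 higher (699 to 4861 against 79.3 to 312). Lyz2 alone, at 78689 to 157579 normalized counts, made up most of the leukocyte sum in normal lung. It had 134 to 5613 in tumors. In tumor 7 Ptprc (3291), Itgax (1840) and Cd8a (1284) lay above every normal lung, while the rest of the leukocyte list did not. No gene of these lists was at 0 in every tumor. The largest part of the fibroblast sum in normal lung was Inmt, at 26731 to 64388 normalized counts. For the 6 fibroblast markers called lower every tumor lay below every normal lung. Lum, Col14a1 and Scara5 were not called, and tumor 7 (1138, 734 and 491) lay above every normal lung for each. All 10 proliferation markers were higher, and of 7 cardiac muscle markers 1 was higher. Tumor 7 had the highest tumor sum for fibroblast, smooth muscle and pericyte, leukocyte, platelet, mesothelial and cardiac markers, and its smooth muscle and pericyte sum of 9393 lay within the normal range. Without it the log2 fold changes were -3.92 for Tgfbr2, -3.61 for Tgfbr3, -3.08 for Smad3 and -3.18 for Smad7, each larger than with it. The part of these cell types in the changes of the 10 genes was not tested.

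**Figure D4:**
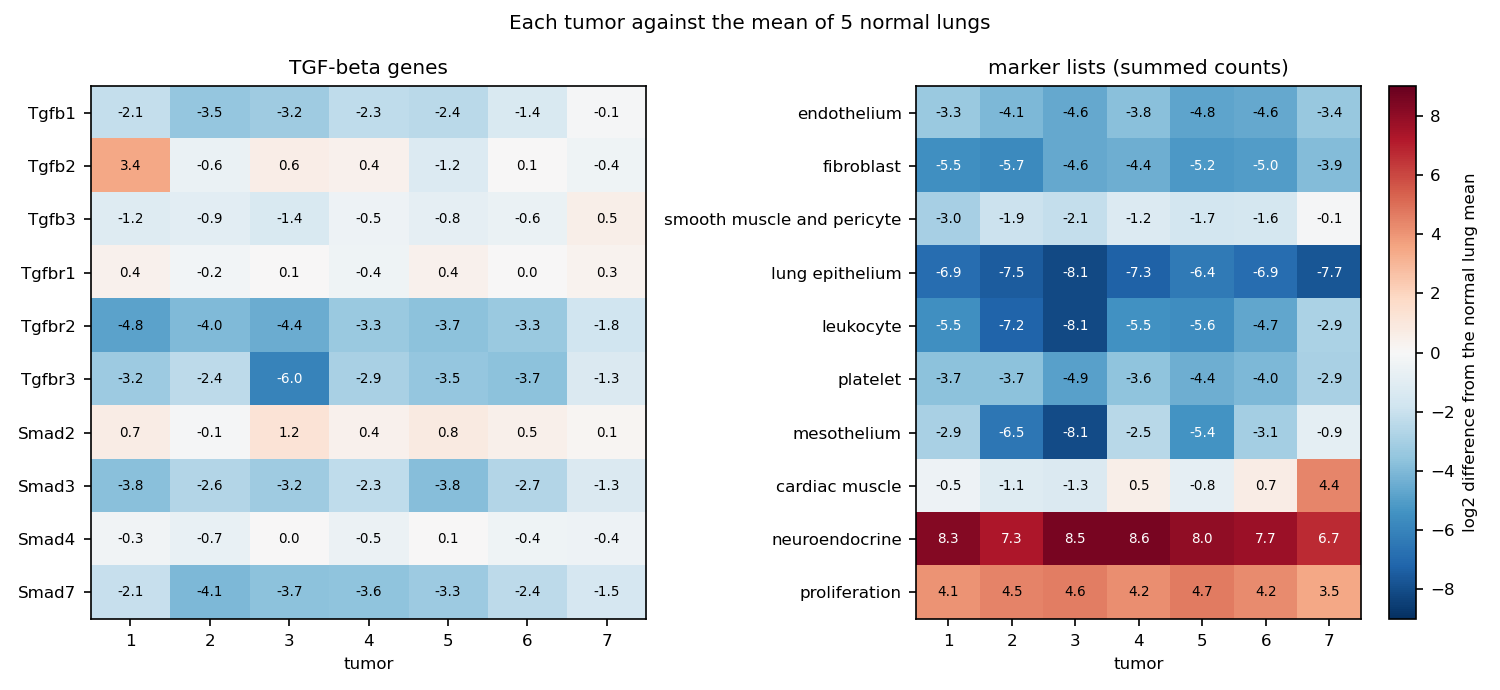
Log2 difference of each tumor from the normal lung mean for the 10 genes (left, log2 of count + 1) and for the summed counts of marker lists (right), with blue for lower and red for higher. Tumor 7 has the smallest falls of Tgfb1, Tgfbr2, Tgfbr3, Smad3 and Smad7 and the smallest fall of leukocyte and fibroblast markers.

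The endothelial sum of tumor 1 (7550) in the plot of differences by tumor was mostly Vwf, a clotting protein, at 6522 normalized counts. Pecam1 and Cdh5, which join endothelial cells, had 421 and 123 in tumor 1 and 2502 and 981 in tumor 7. Across the 12 samples, the genes whose log2 values followed the 10 most closely were named by Pearson's r as a measure of likeness, with no test. The samples fall into separate groups by tissue, so a gene that fell evenly in tumors scores high. Tgfbr2 was most like Cavin1 and Dlc1 (both r = 0.995), Smad3 like Meox2 (0.988) and Rnh1 (0.987), Smad7 like Echdc3 (0.989) and Ccdc68 (0.987), Tgfbr3 like Fmo2 (0.993) and Rbms2 (0.990), Tgfb1 like Gm14005 (0.993) and Nfkb2 (0.990), and Tgfb3 like Rab3il1 (0.995) and Itga7 (0.970). Likeness was lower for Tgfb2, to Napepld and Slc45a4 (both 0.861), and for Tgfbr1, to Cyld (0.880) and Cpeb2 (0.877). Smad2 was most like Snapc1 (0.978) and Cbll1 (0.955), and Smad4 like Mindy2 (0.940) and 2610002M06Rik (0.937).

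Genes that store and activate the ligand were lower in tumor as far as they passed the test. Of 14 measured, 10 were lower, 0 higher and 4 did not pass, with a median log2 fold change of -1.40. Over all tested genes 30.1% were lower and 31.4% higher. On recovered reads of 11 samples edgeR and DESeq2 each called 6 of the 14 genes lower. Itgb6, the epithelial integrin subunit that pulls TGF-beta free of its propeptide, changed by -6.48 (SE 0.59), with 1521 ± 69.4 (SD, n = 5) normalized counts in the normal group and 23.9 ± 23.4 (SD, n = 7) in tumors. Its partner Itgav changed by -2.87 (SE 0.57). Lrrc32, which tethers latent TGF-beta to the cell surface, changed by -2.76 (SE 0.46), and Nrros, its counterpart on macrophages and microglia, by -3.11 (SE 0.69). Groups did not overlap for Itgb6, Itgav and Lrrc32, whereas tumor 7 reached the normal range for Nrros, which edgeR did not call (-1.84, adjusted p = 0.0570).

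Receptors of the wider family moved both ways. Of 12 measured, 6 were lower and 4 higher, beside 30.1% and 31.4% of all tested genes. Their median log2 fold change was -0.52. Acvrl1 and Eng, the type I receptor and co-receptor of endothelium, changed by -5.53 (SE 0.65) and -4.53 (SE 0.51), and Bmpr2, the type II receptor for bone morphogenetic proteins, by -2.60 (SE 0.12). Amhr2 also fell (-1.52, SE 0.32). The higher genes were activin and BMP receptors, but receptors of both kinds were also among the lower genes. Acvr1 rose by 1.59 (SE 0.23), with 489 ± 56.4 (SD, n = 5) normalized counts in the normal group, 1549.8 ± 555 (SD, n = 7) in tumors and no overlap, Acvr1c by 2.81 (SE 0.67), Acvr2a by 0.87 (SE 0.20) and Acvr2b by 0.74 (SE 0.29). The call of Acvr2b was lost in 11 of 23 alternative fits, and that of Acvr1c with the Y-linked covariate (2.20, limma adjusted p = 0.0514). Acvr1c had 2.15 and 1.41 normalized counts in normal lungs 2 and 4, under the worth of 3 reads there (3.23 and 4.23).

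**Figure D5:**
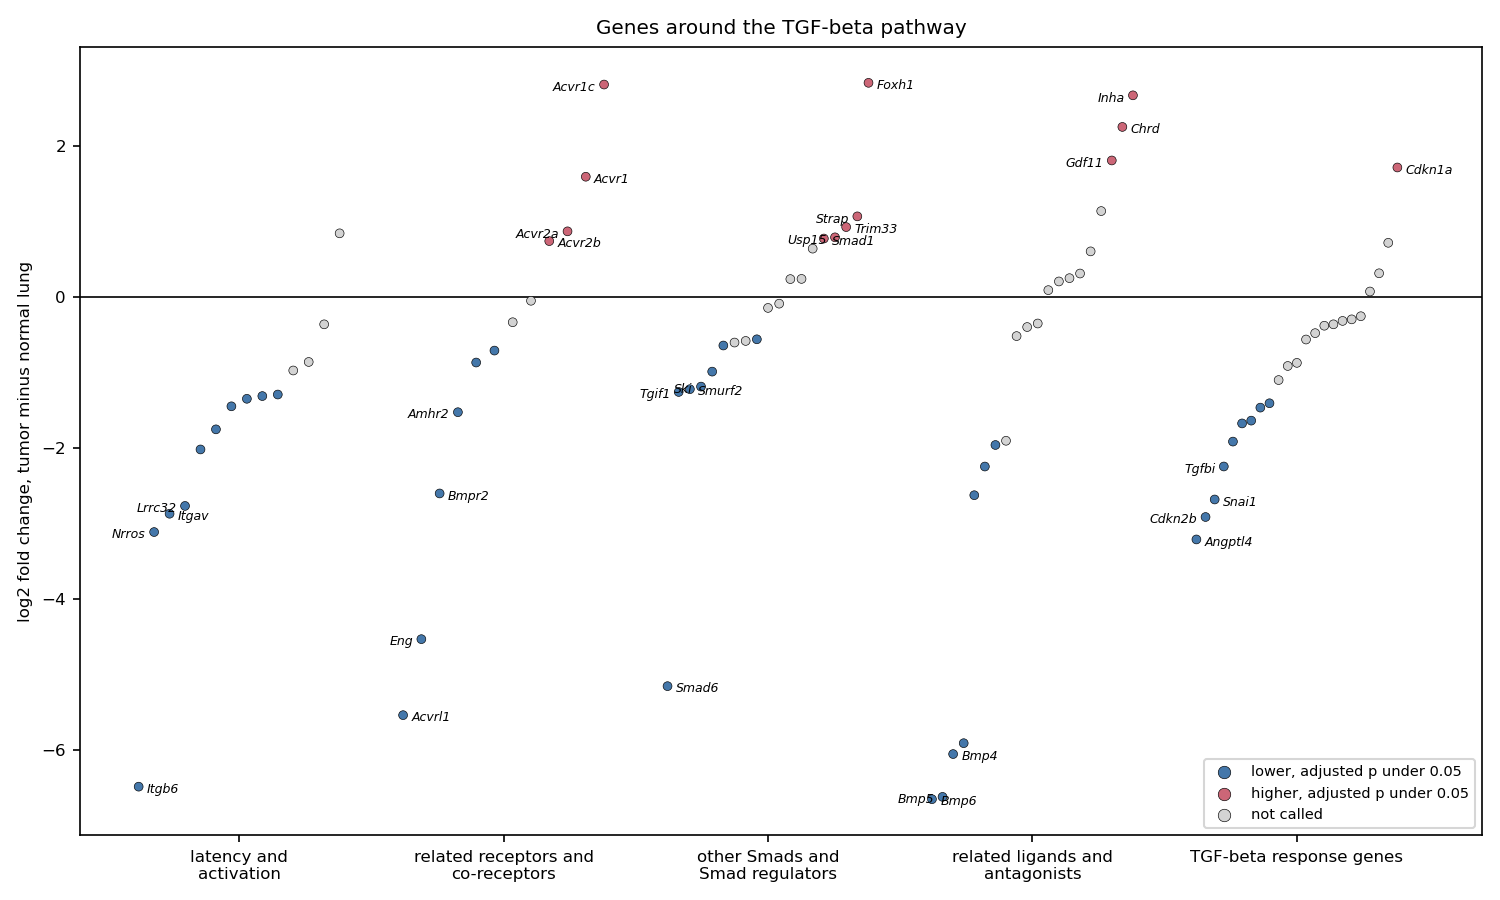
Log2 fold change (tumor minus normal lung, limma) of 88 of the 90 genes in 5 lists around the pathway, 1 point per gene sorted within its list, coloured by call. Itgb6, Acvrl1, Smad6, Bmp3, Bmp4, Bmp5 and Bmp6 lie below -5, and the genes called higher lie between 0.74 and 2.84, the top one being Foxh1, whose fold rests on normal lungs under 3 reads.

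Among 19 other Smads and Smad regulators, 5 were higher, 7 lower and 7 did not pass, with a median log2 fold change of -0.14. These counts are close to the shares over all tested genes, 31.4% higher and 30.1% lower. Smad6, the inhibitory Smad of the BMP branch, fell by 5.15 on the log2 scale (SE 0.37), from 8106 ± 1615 to 257 ± 122 normalized counts, the largest change in that list. Smad1, which carries BMP signals, rose by 0.77 (SE 0.14). The ubiquitin ligase Smurf2, which targets the receptors through Smad7, changed by -1.22 (SE 0.16) and the Smad co-repressor Ski by -1.18 (SE 0.15). Tgif1, another co-repressor, changed by -1.26 (SE 0.45), a call lost in 7 of 23 alternative fits. EdgeR (-0.66) and DESeq2 (-0.75), both without tumor 3, were among them. Trim33, which binds activated Smad2 and Smad3, rose by 0.93 (SE 0.15), Usp15, a deubiquitinase of the receptor complex, by 0.79 (SE 0.15), and Strap, which aids Smad7 at the receptor, by 1.07 (SE 0.27). Foxh1, a DNA-binding partner of Smad2, had at most 2.15 normalized counts in normal lung, under the worth of 3 reads, and a mean of 10.1 in tumors, all above normal lung.

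The largest falls of single genes in these lists were among related ligands and antagonists. Of 21 measured, 8 were lower, 3 higher and 10 did not pass, with a median log2 fold change of only -0.40. Over all tested genes 30.1% were lower and 31.4% higher. Among the bone morphogenetic proteins, Bmp6 changed by -6.65 (SE 0.50), Bmp5 by -6.61 (SE 0.39) and Bmp4 by -6.05 (SE 0.64), and no tumor reached the normal range for any of them. Inha, the inhibin subunit that opposes activin, rose by 2.67 (SE 0.33), the BMP antagonist Chrd by 2.25 (SE 0.30) and Gdf11, a ligand that signals through Smad2 and Smad3, by 1.81 (SE 0.23), each with every tumor above every normal lung.

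Genes that TGF-beta is known to control did not move as one. Of 24 measured, 9 were lower, 1 was higher and 14 did not pass, with a median log2 fold change of -0.72. The shares over all tested genes were 30.1% lower and 31.4% higher. Angptl4 changed by -3.21 (SE 0.65), the cell cycle inhibitor Cdkn2b by -2.91 (SE 0.36) and the transcription factor Snai1 by -2.68 (SE 0.29), all with no overlap. Tgfbi, a matrix protein named for its induction, changed by -2.24 (limma SE 0.89, adjusted p = 0.0411). This call was lost in 13 of the 22 alternative fits that gave an adjusted p. Without tumor 3, its lowest sample, it was -1.66 in limma and -0.36 in edgeR on recovered reads. Tumor 7 had 4452 normalized counts of Tgfbi, above every normal lung, and the other tumors had 25.8 to 772, below every normal lung. Cdkn1a, a cell cycle inhibitor that p53 also controls, was the one gene higher, by 1.71 (SE 0.41). The matrix genes Col1a1 (0.72, adjusted p = 0.330) and Fn1 (-0.36, adjusted p = 0.514) were not called by limma. Tumor 7 had the highest tumor value of both, at 8727 and 6664 normalized counts, above every normal lung. Over the 5 lists together, 40 of 90 genes were lower and 13 higher, with a median log2 fold change of -0.62, against 30.1% and 31.4% of all tested genes.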

How the data were processed

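The deposited table gives normalized counts (signal) that the authors made from read counts. FeatureCounts, DESeq2 and the build GRCm39 are named in the submitters' processing notes, with no version. The aligner, the annotation and use of the strand are not given in the sources used here. No source states the scale. Dividing each column by its smallest step gave whole reads (within 0.01) for 100% of values, so that totals of recovered reads give the depth. In 1 column (tumor 3) the step lay too close to 1 for this to be certain, and count tests used the other 11 samples. Reads are not independent molecules, so floors of 3 reads cover counting error only.

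Symbols came from GENCODE M21 (29982 of 30399 identifiers), as did exon lengths, the union of a gene's exons on GRCm38. Promoter sequences came from RefSeq (GRCm38.p6), with 5 of the 10 genes used. Samples were grouped by the tissue label, and replicate numbers follow the order of listing. The 23674 genes averaging 1 or more entered limma as log2(value + 1) (version 3.58.1, lmFit and eBayes with trend, R 4.3.3), with Benjamini-Hochberg adjustment over all of them, and were called at an adjusted p under 0.05. Fold changes are on that log2 scale, which understates change at low values. The design foresaw edgeR for raw counts. As the table is normalized, limma was the main test, with edgeR 4.0.16 and DESeq2 1.42.0 on recovered reads as alternatives. The scripts were tested on simulated data. Members, lists and alternatives were chosen with earlier results of these data known.

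Named genes are the 10 members, the up to 4 most changed called genes per list and direction with a mean log2 value of at least 4, genes with separated groups against their list's direction, and the 2 genes most like each member. Col1a1 and Fn1 were chosen after their values were seen. Of the listed genes, 2 response genes, 1 fibroblast and 2 leukocyte markers were not analysed here. Values of 2 pathway genes are not reported here, and list counts include them.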

Additional observations from a re-analysis of the deposited data

Results flagged for a closer look

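Tgfb2 in tumor 1 stood apart from the other tumors, at 10064 normalized counts (log2 value 13.30, nearest tumor 10.44). The gap made up 0.608 of the range of the 7 tumors, above the 95% critical value of 0.568. Of 20 groups of values examined, 1 held such a sample, and 1 would be expected by chance.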

How the results depend on the processing

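Tgfb1, Tgfbr2, Tgfbr3, Smad3 and Smad7 were called lower in all 23 alternative fits, and 5 to 7 of the 10 genes were lower in them. The count of 1 gene higher, Smad2, fell to 0 with tumors of one title number correlated and with the Y-linked covariate, and ran from 0 to 1 when each sample was left out in turn. Tgfb3 and Smad4 were called lower in 4 alternatives each. Without the trachea-titled tumors Tgfb2 changed by -0.16 and Tgfbr1 by -0.026, opposite in sign to the values reported, and with each sample left out in turn Tgfb2 ran from -0.19 (without tumor 1) to 0.59 (without tumor 5). None of these passed the threshold in limma, and DESeq2 gave no adjusted p for Tgfb2. Over all tested genes 5874 to 8594 were higher and 5514 to 7574 lower. Equal column totals shifted the median log2 fold change of all genes from 0.04 to 0.23. Counts over the 5 lists ran from 12 to 14 higher and from 31 to 46 lower, and the 10 lower latency and activation genes became 6 in edgeR and in DESeq2. No paired analysis was possible because the labels give the groups no shared replicate numbers. Where 1 sample was left out, fewer samples were fitted; other causes of these shifts were not tested.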
